A study of Mus musculus with 8 samples.

Results

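Matrix metalloproteinases (MMPs), the ADAM and ADAMTS metalloproteinases and the tissue inhibitors of metalloproteinases (TIMPs) were examined in primary and metastatic Myc-CaP prostate tumors. The members are the genes of the count data whose symbol is Mmp, Adam or Adamts followed by a number (with a or b allowed for Mmp), or Timp1 to Timp4. They are 73 of the 38115 genes counted, made up of 23 Mmp, 27 Adam, 19 Adamts and 4 Timp genes. The Myc-CaP cell line was derived from a mouse prostate cancer, and either its androgen sensitive form (AS) or its castrate resistant form (CR) was injected into the anterior prostate of male FVB mice that were intact or had been castrated beforehand. RNA was sequenced from 8 tumors, 2 primary AS, 2 metastatic AS, 2 primary CR and 2 metastatic CR. The labels call the metastases matched but name neither the primary tumor of each nor the organ it came from, they give no age, and they do not say for each tumor whether its host was castrated. The injected line goes with the phenotype and so, by the growth protocol, does the host, intact or castrated beforehand. Neither can be told apart from the phenotype, and nor can the series of numbers in the tumor titles. Nothing in the labels says whether 2 tumors of a group came from separate animals, so the p-values measure the spread between these tumors.

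MMPs are secreted or membrane-bound zinc proteases that cut collagens, laminins, elastin and other matrix proteins, and they are made as inactive precursors. ADAMs sit in the cell membrane and mostly release the outer parts of growth factors and receptors, whereas ADAMTS proteins are secreted and cut proteoglycans, procollagens and a few blood proteins. TIMPs bind the active site of these proteases and block it, and the balance of proteases and TIMPs is a long-studied feature of tumor invasion. RNA levels, which were measured here, do not show how much of a protease is active.

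The level of a gene is given as RPKM, its reads divided by the length of its merged exons in kilobases and by the library size, after scaling with TMM factors (trimmed means of M-values), so that genes of different length can be set side by side. Total counts ranged from 20905806 to 91886163 per tumor, and those of all 4 AS tumors lay above those of 3 of the 4 CR tumors. Between 59 and 72 members had at least 1 count in a tumor. Of the 73 members, 45 passed the filter on low counts and were tested for tumor type and for phenotype, and 28 did not. Metastatic CR2, the tumor with the fewest reads, had more low-level reads than the others over genes that tumors seldom use. Olfactory receptor genes, 1098 in all, took 176 CPM (reads scaled to library size) in it against 9.35 to 48.1 in the other 7 tumors, and the 28 untested members took 8.29 against 0.784 to 2.17. Of the 73 members, 28 lay above the 95th percentile of olfactory receptor genes in all 8 tumors, 11 in no tumor and 34 in some of them.

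The promoters of these genes differ, and a few stretches show how. In mouse genome build GRCm38, 10 Mmp genes lie side by side on chromosome 9 (chr9:7272514-7699585), among them Mmp7, Mmp12 and Mmp13. Promoter windows of 300 bases, from 250 before to 50 after a start, were taken from RefSeq (build GRCm38.p6) and were found for 44 of the 73 members. The letters TGAGTCA, the site bound by AP-1 transcription factors, were searched on both strands, and so were TATAAA (the TATA box) and GGGCGG (the GC box). A gene counted when any of its windows held the letters, and each motif was counted on its own. The AP-1 letters were in the windows of 7 of the 10 cluster genes (70.0%) and of 5.95% of all genes with a window. TATAAA was in 9 of the 10 and in 15.7% of all genes. GGGCGG was in none of the 10, in 23 of the 34 members outside the cluster (67.6%) and in 38.2% of all genes. A match is only a match of letters and says nothing about binding in these tumors. The 100 bases before the start are shown for 3 cluster genes, with the AP-1 and TATA letters of either strand in capitals, and for Adam22 and Adamts12, the members that passed the test between phenotypes, whose stretches hold none of these motifs. The stretches are chr9:7691990-7692089 (plus strand) for Mmp7, chr9:7272414-7272513 (plus strand) for Mmp13, chr9:7445722-7445821 (plus strand) for Mmp3, chr5:8368161-8368260 (minus strand) for Adam22 and chr15:11064673-11064772 (plus strand) for Adamts12.
Mmp7: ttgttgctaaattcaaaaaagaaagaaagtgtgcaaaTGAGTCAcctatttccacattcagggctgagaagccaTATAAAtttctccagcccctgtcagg
Mmp13: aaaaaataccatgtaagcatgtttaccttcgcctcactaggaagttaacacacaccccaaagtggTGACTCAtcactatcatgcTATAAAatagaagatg
Mmp3: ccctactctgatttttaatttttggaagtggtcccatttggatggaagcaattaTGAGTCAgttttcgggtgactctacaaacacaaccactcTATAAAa
Adam22: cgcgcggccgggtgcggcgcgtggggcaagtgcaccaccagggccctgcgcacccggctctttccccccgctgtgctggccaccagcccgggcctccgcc
Adamts12: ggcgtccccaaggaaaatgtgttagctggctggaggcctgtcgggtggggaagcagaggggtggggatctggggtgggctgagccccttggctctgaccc

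ADAM genes made up most of the RNA of these families. Their summed level was 58.8% to 71.5% of that of all 73 members in each tumor, against 14.9% to 25.8% for the TIMPs, 5.29% to 11.4% for the ADAMTS genes and 3.11% to 9.39% for the MMPs. Adam10, which cuts Notch receptors, cadherins and many other surface proteins, had the highest level in every tumor, from 40.2 in primary CR1 to 96.2 in metastatic CR2. Adam9, another membrane sheddase, followed at 35.8 on average, then Timp2 at 29.6, Adam15 at 18.2, Timp1 at 10.9 and Adamts1 at 10.03. Adam17, which releases tumor necrosis factor and ligands of the epidermal growth factor receptor, varied least among the core genes, from 5.63 to 8.38. The plot of levels by tumor shows these genes far above the rest of their families.

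**Figure D1:**
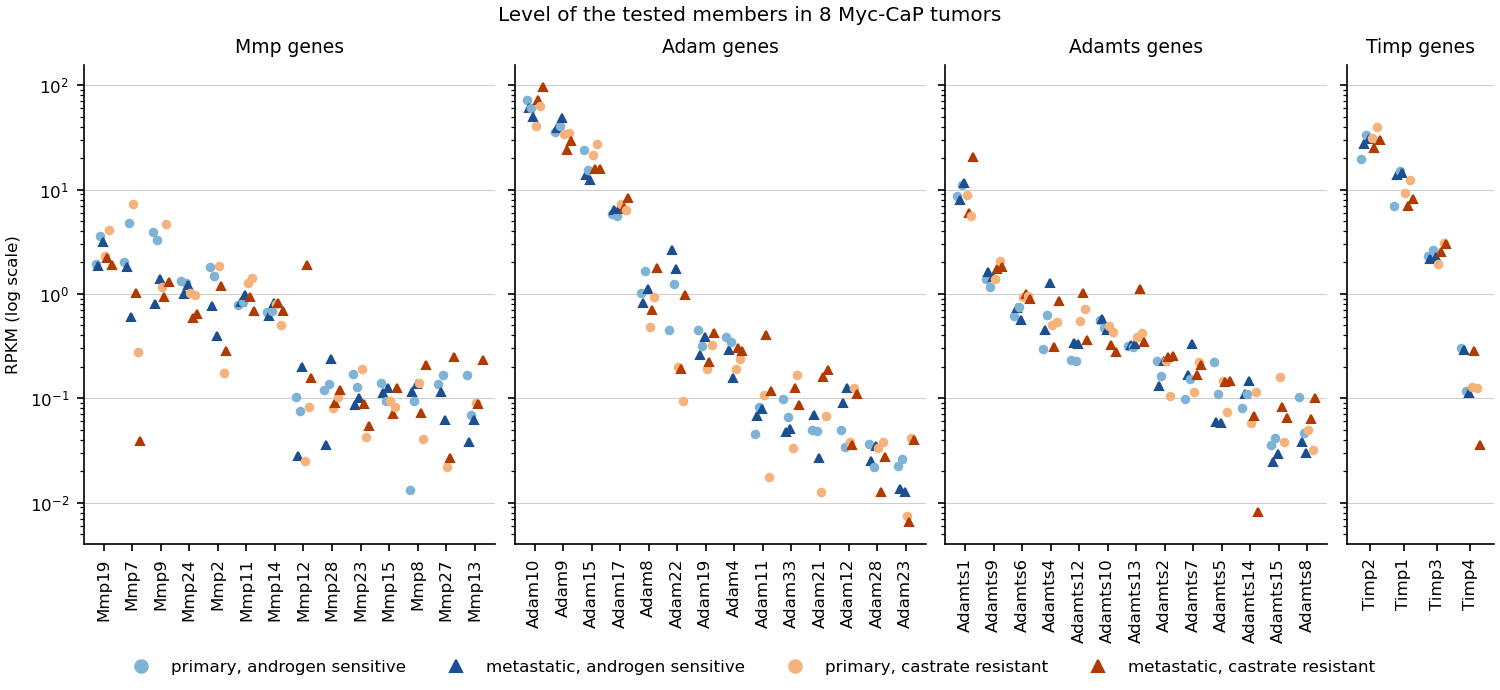
Level of each of the 45 tested members in each of the 8 tumors, in RPKM on a log scale, by family and in order of the mean level; 2 values of 0 are not drawn. Adam10, Adam9, Timp2, Adam15 and Timp1 lead, and Mmp7 and Mmp12 spread widely among the tumors.

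The MMPs were led by Mmp19 (2.63 on average), Mmp7 (2.23) and Mmp9 (2.18). Mmp19, a secreted protease of basement membrane proteins, lay between 1.84 and 4.08, but 28.3% of its exon bases overlap genes on the opposite strand. Mmp24 and Mmp14, proteases anchored in the membrane, averaged 1.01 and 0.700, and Mmp14, the activator of the MMP2 precursor, stayed between 0.499 and 0.824. Mmp11 (stromelysin-3) lay between 0.693 and 1.43. The classical collagenases were near the low end: Mmp13 averaged 0.0937, with 0 in primary CR2 and 0.235 in metastatic CR2, and Mmp8 averaged 0.102. Mmp3 (stromelysin-1), which did not pass the filter on low counts, was highest in primary CR1 at 0.161 and was at 0 in primary CR2 and metastatic CR2. Of the cluster on chromosome 9, 5 genes passed the filter and 5 did not, and its members other than Mmp7 and Mmp12 reached at most 0.246.

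The inhibitors were led by Timp2, which took 62.8% to 73.4% of the summed TIMP level. Timp2, which both blocks MMP2 and helps MMP14 to activate its precursor, averaged 31.0 ± 8.34 (SD, n = 4) in primary and 28.2 ± 2.44 (SD, n = 4) in metastatic tumors. Timp1, an inhibitor that pairs with the MMP9 precursor, lay between 7.02 and 15.04 in primary tumors and between 7.01 and 14.3 in metastatic tumors, with 10.9 and 10.8 as the means. By phenotype, Timp1 was 12.6 ± 3.72 in AS and 9.18 ± 2.26 in CR tumors (SD, n = 4 each). Timp3, the inhibitor that stays bound to the matrix and also blocks ADAM17, was 2.49 ± 0.497 and 2.50 ± 0.386 by tumor type (SD, n = 4 each). Timp4 was scarce, at 0.168 ± 0.0883 and 0.180 ± 0.127 (SD, n = 4 each). No TIMP passed the test by tumor type or by phenotype, and each difference between 2 means was smaller than the larger SD of the 2 groups. Timp1, Timp3 and Timp4 lie within the synapsin genes Syn1, Syn3 and Syn2, and 21.3% of the exon bases of Timp3 overlap Syn3 on the opposite strand.

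The first question was whether metastases differ from primary tumors. No member had an adjusted p under 0.05 (quasi-likelihood test of edgeR, adjusted by the Benjamini-Hochberg method over 17104 genes), and neither did any other gene: 0% of all tested genes were called. DESeq2 called 0 members as well. At an unadjusted p under 0.05, 3 of the 45 tested members differed (6.67%), against 2.68% of all tested genes. These 3 were Mmp9 and Adam15, lower in metastatic tumors, and Mmp12, higher in them, all with an adjusted p of 0.997. With phenotype as a covariate, 4 members were under 0.05 unadjusted, and the number over all genes rose from 459 to 1146. No member had primary and metastatic tumors that did not overlap, while 1.7% of all tested genes did. The median log2 fold change of the 45 members was 0.01, with 24 above and 21 below 0, and that of all tested genes was -0.03.

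Mmp9, the gelatinase that cuts basement membrane collagen and that leukocytes also store (chr2:164940780-164955850), was at 3.92, 3.32, 1.17 and 4.63 in primary AS1, AS2, CR1 and CR2. It was at 0.802, 1.38, 0.925 and 1.30 in metastatic AS1, AS2, CR1 and CR2. The 4 metastatic tumors were all low, and primary CR1 was the only primary tumor among them. The means were 3.26 ± 1.49 in primary and 1.10 ± 0.281 in metastatic tumors (SD, n = 4), a log2 fold change of -1.56 (SE 0.40, unadjusted p = 0.00335 in the fit across all genes). Within AS tumors the log2 fold change was -1.74 and within CR tumors -1.39. Neutrophil markers, 10 genes, summed to 5.85 to 15.5 in primary and 8.80 to 31.7 in metastatic tumors, and S100a8 (9.49) and S100a9 (15.2) made up most of the highest sum, that of metastatic AS1. The neutrophil genes Elane, Mpo and Ly6g were at 0 in all 4 primary tumors and at or under 0.119 in the metastatic ones. Other genes of the list were counted in every tumor, Cxcr2 at 2.31 to 4.90, Csf3r at 0.486 to 0.905, Retnlg at 0.0835 to 1.13 and Ngp at 0.0479 to 1.05. Camp lay between 0 and 0.451. The part of these cells in the Mmp9 values was not tested. In bulk tumors, fewer cells of a type and less RNA per cell cannot be told apart.

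Mmp7 and Mmp2 were also lower on average in metastatic tumors but varied more. Mmp7 (matrilysin, a small protease of epithelial cells) was at 2.03, 4.74, 7.31 and 0.278 in primary AS1, AS2, CR1 and CR2, and at 1.803, 0.596, 1.01 and 0.0392 in metastatic AS1, AS2, CR1 and CR2. Both CR2 tumors were low in Mmp7, with 6 reads in the primary and 1 read in the metastatic tumor, so the groups overlapped. The log2 fold change was -2.03 (SE 0.96, unadjusted p = 0.0623 in the fit across all genes). The same fit gave an unadjusted p = 0.0359 without metastatic AS1 and 0.0178 without primary CR2. Leaving out any other tumor gave 0.0647 to 0.190, with the smallest change (-1.43) without primary CR1. Mmp2, the gelatinase made mainly by stromal cells, was at 1.79, 1.47, 1.83 and 0.176 in primary AS1, AS2, CR1 and CR2, and at 0.759, 0.395, 1.18 and 0.286 in metastatic AS1, AS2, CR1 and CR2. Primary CR2 lay apart from the other 3 primary tumors. The log2 fold change of Mmp2 was -1.02 (SE 0.66, unadjusted p = 0.154 in the fit across all genes). Without primary CR2 it was -1.35, with an unadjusted p = 0.0177 in that fit. With any other tumor left out, the change of Mmp2 was -1.44 to -0.78, with an unadjusted p of 0.0709 to 0.294 in the same fit. Smooth muscle markers, 10 genes, were also lowest in primary CR2 (summed level 10.2) and metastatic CR2 (12.3) against 21.04 to 31.1 in the other 6 tumors. Synm made up much of these sums, and without it the sum was 4.27 in primary CR2 and 8.19 in metastatic CR2, the latter above metastatic AS1 (7.23) and metastatic AS2 (7.67). Fibroblast markers, 10 genes, summed to 10.2 to 14.6 in primary and 7.45 to 14.2 in metastatic tumors. By tumor type, the median log2 fold change was -0.335 over the 9 tested fibroblast markers and -0.434 over the 10 smooth muscle markers, with none called. The part of these cells in the Mmp2 values was not tested.

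Adam15, a membrane ADAM with adhesion and sheddase functions, was at 24.0, 15.3, 21.4 and 27.3 in primary AS1, AS2, CR1 and CR2, and at 13.7, 12.4, 15.7 and 15.8 in metastatic AS1, AS2, CR1 and CR2. Metastatic tumors were low throughout, and primary AS2 was the single primary tumor within their range. The log2 fold change was -0.61 (SE 0.21, unadjusted p = 0.0165 in the fit across all genes). Without primary CR2 the unadjusted p was 0.0550 in that fit. Of the exon bases of Adam15, 20.6% overlap a gene on the opposite strand, and whether counting used the strand is not stated in the sources used here.

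Mmp12, the macrophage metalloelastase, was high in a single tumor. It was at 1.87 in metastatic CR1 (464 reads) and between 0.0251 and 0.200 in the other 7 tumors, so that its log2 fold change of 2.99 (SE 1.12, unadjusted p = 0.0244 in the fit across all genes) fell to 0.87 without that tumor, with an unadjusted p = 0.251. Without primary CR1 it was 2.68, with an unadjusted p = 0.0649 in that fit. Macrophage markers, 9 genes, summed to 180 in metastatic CR1, the lowest of the 8 tumors, against 306 to 472 in the others. Mmp12 was also beside Adamts5 at an unadjusted p under 0.05 in the interaction of tumor type and phenotype, described last. Adam22, Adam11 and Adam21 completed the 4 members with the smallest unadjusted p in the higher direction. Adam22 had a log2 fold change of 1.48 (SE 0.86, unadjusted p = 0.118 in the fit across all genes), which was 2.48 without primary AS2 (unadjusted p = 0.0173), 1.85 without metastatic CR1 (0.0391) and 0.94 without metastatic AS1 (0.315). With phenotype as a covariate it was 1.64 (unadjusted p = 0.0122 in the fit across all genes). Adam11, like Adam22 a neuronal adhesion protein without protease activity, was at 0.408 in metastatic CR1 and 0.0175 to 0.118 elsewhere, with a log2 fold change of 1.33 (SE 0.70) that was 0.42 without metastatic CR1. Adam21, an ADAM known mainly from testis, had 3 to 16 reads per tumor. Its log2 fold change was 1.31 (SE 0.73, unadjusted p = 0.104 in the fit across all genes) and 1.67 without metastatic AS2 (unadjusted p = 0.0352 in that fit). In the other fits with 1 tumor left out that tested Adam21, the change was 0.95 to 1.54, with an unadjusted p of 0.0937 to 0.247.

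**Figure D2:**
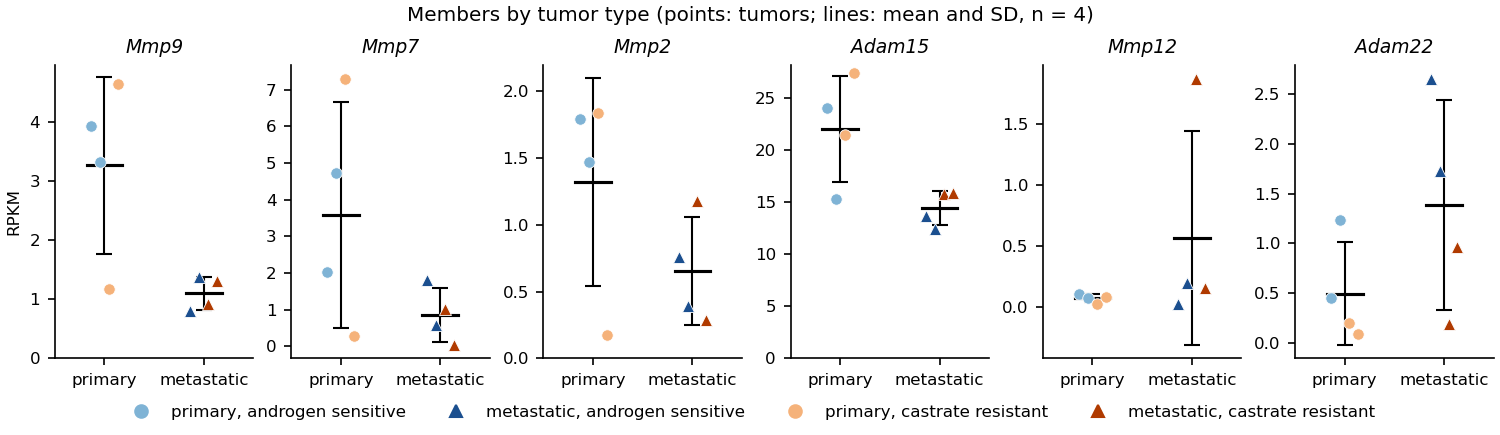
Level of 6 members, in RPKM, in the 4 primary (circles) and 4 metastatic (triangles) tumors, with the mean and the SD of each group; each panel has its own scale. Metastatic tumors lie low for Mmp9 and Adam15 but overlap the primary tumors in every panel, and Mmp12 is high in metastatic CR1 alone.

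The summed level of the 23 Mmp genes was 12.6 to 16.8 in primary and 7.13 to 10.1 in metastatic tumors. This sum is a description of the members and was not tested. Mmp2, Mmp7 and Mmp9, a group put together after their values were seen, made up 40.3% to 62.0% of the sum in primary and 22.8% to 40.6% in metastatic tumors. The other 20 Mmp genes summed to 5.80 to 7.53 in primary and 4.92 to 7.27 in metastatic tumors, which overlap. Summed TIMP RNA was 29.4 to 55.1 in primary and 34.9 to 47.2 in metastatic tumors. The ratio of summed TIMP to summed MMP level was 2.17, 3.06, 2.56 and 4.37 in primary AS1, AS2, CR1 and CR2. It was 5.28, 4.89, 3.45 and 5.75 in metastatic AS1, AS2, CR1 and CR2. Primary CR2 was higher in this ratio than metastatic CR1, so the groups overlap.

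**Figure D3:**
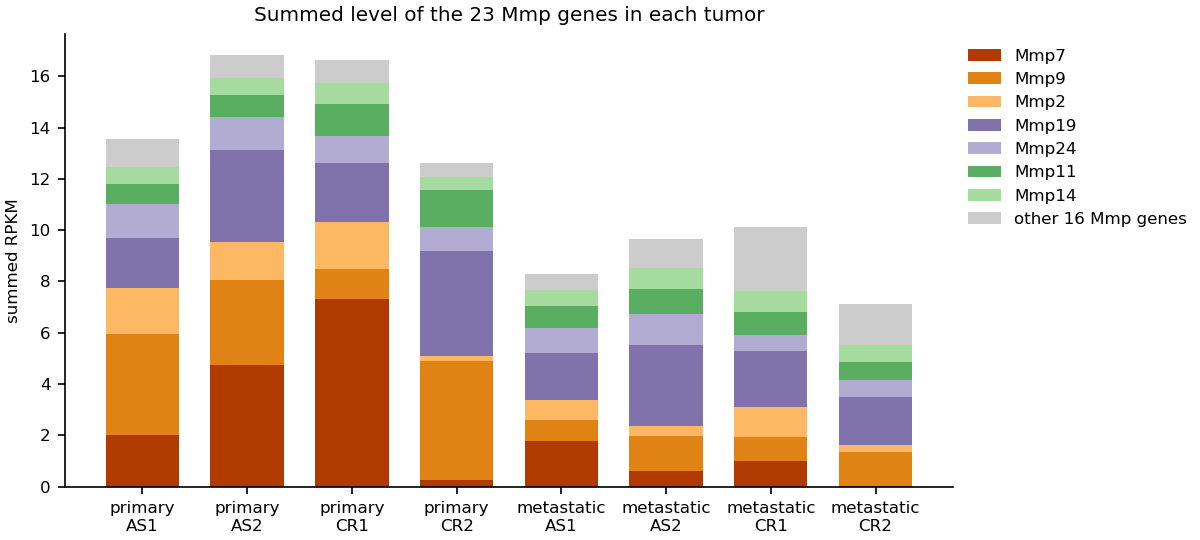
Summed level of the 23 Mmp genes in each tumor, in RPKM, with the parts of the 7 Mmp genes named in the legend and of the other 16. The bars of the 4 primary tumors (12.6 to 16.8) are taller than those of the 4 metastatic tumors (7.13 to 10.1), and Mmp7, Mmp9 and Mmp2 form the lower part of each bar.

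The second question was whether castrate resistant tumors differ from androgen sensitive ones, with tumor type as a covariate. Of the 45 tested members, 2 had an adjusted p under 0.05 (4.44%), against 12.2% of all tested genes (quasi-likelihood test of edgeR, adjusted by the Benjamini-Hochberg method over 17104 genes). Adam22 fell and Adamts12 rose in CR tumors, so 1 member was called in each direction, where 6.16% of all genes were called higher and 6.01% lower in CR tumors. AS and CR tumors did not overlap for 4 members (8.89%), against 18.9% of all tested genes. The median log2 fold change was 0.02 for the members and -0.01 for all tested genes, and the median size, without sign, was 0.31 and 0.38.

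Adam22, a receptor for secreted LGI proteins at synapses that lacks protease activity (chr5:8072352-8368160, minus strand), was at 0.455 in primary AS1, 1.23 in primary AS2, 2.65 in metastatic AS1 and 1.72 in metastatic AS2. In CR tumors it was at 0.199 in primary CR1, 0.0932 in primary CR2, 0.192 in metastatic CR1 and 0.966 in metastatic CR2. CR tumors were low except metastatic CR2, which lay above primary AS1. The log2 fold change was -2.20 (SE 0.53, adjusted p = 0.0325). The call was lost in the same test without metastatic AS1 (adjusted p = 0.101), metastatic AS2 (0.0705), primary AS2 (0.0900), metastatic CR1 (0.0667) or primary CR2 (0.0850), with log2 fold changes of -2.37 to -1.78. With phenotype as the only term the adjusted p was 0.0941. Within primary tumors the log2 fold change was -2.49 and within metastatic tumors -1.93, neither of them called.

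Adamts12, a secreted protease known to cut cartilage oligomeric matrix protein (chr15:11064790-11349231, plus strand), was at 0.232 in primary AS1, 0.226 in primary AS2, 0.338 in metastatic AS1 and 0.329 in metastatic AS2. In CR tumors it was at 0.549 in primary CR1, 0.717 in primary CR2, 1.02 in metastatic CR1 and 0.360 in metastatic CR2. AS and CR tumors did not overlap, although metastatic CR2 lay just above the AS tumors. The log2 fold change was 1.26 (SE 0.32, adjusted p = 0.0366). The call was lost in the same test without primary AS1 (adjusted p = 0.0952), metastatic AS1 (0.103), primary AS2 (0.103), metastatic AS2 (0.104), metastatic CR1 (0.130) or primary CR2 (0.0884), with log2 fold changes of 0.97 to 1.30. Within primary tumors the log2 fold change was 1.46 and within metastatic tumors 1.06, neither of them called.

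Other members with separate groups did not pass the adjusted threshold and were named after their values were seen. Adamts6 was at 0.558 to 0.757 in AS and 0.891 to 1.001 in CR tumors, with a log2 fold change of 0.51 (adjusted p = 0.105). Adamts13, the protease of von Willebrand factor, was at 0.307 to 0.328 in AS tumors and at 0.386, 0.423, 1.12 and 0.348 in primary CR1, primary CR2, metastatic CR1 and metastatic CR2. Its log2 fold change was 0.77 (adjusted p = 0.209 in the same test) and 0.27 without metastatic CR1. Adam9 was at 35.3 to 48.5 in AS and 23.7 to 35.1 in CR tumors, groups that nearly touch, with a log2 fold change of -0.43 (adjusted p = 0.149). Within primary tumors its log2 fold change was -0.14 and within metastatic tumors -0.72. At an unadjusted p under 0.05 there were 6 members (13.3%), against 28.8% of all tested genes. They were Adam9, Adam22, Adamts6, Adamts12, Adamts15 and Mmp24. Mmp24 averaged 1.21 ± 0.145 in AS and 0.809 ± 0.222 in CR tumors (SD, n = 4 each; adjusted p = 0.0787), and 13.6% of its exon bases overlap a gene on the opposite strand. Adamts15, which cuts versican, had a log2 fold change of 1.44 (adjusted p = 0.0678) at levels of 0.0244 to 0.161. Adamts15 passed the adjusted threshold without primary CR2 (adjusted p = 0.0335), and Mmp24 passed it without primary CR1 (adjusted p = 0.0398). Of all genes, 1049 and 4133 were called in these 2 fits, against 2081 with all tumors. DESeq2 called Adamts6, Adamts15 and Mmp24 beside Adam22 and Adamts12, while it called 20.7% of all tested genes.

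**Figure D4:**
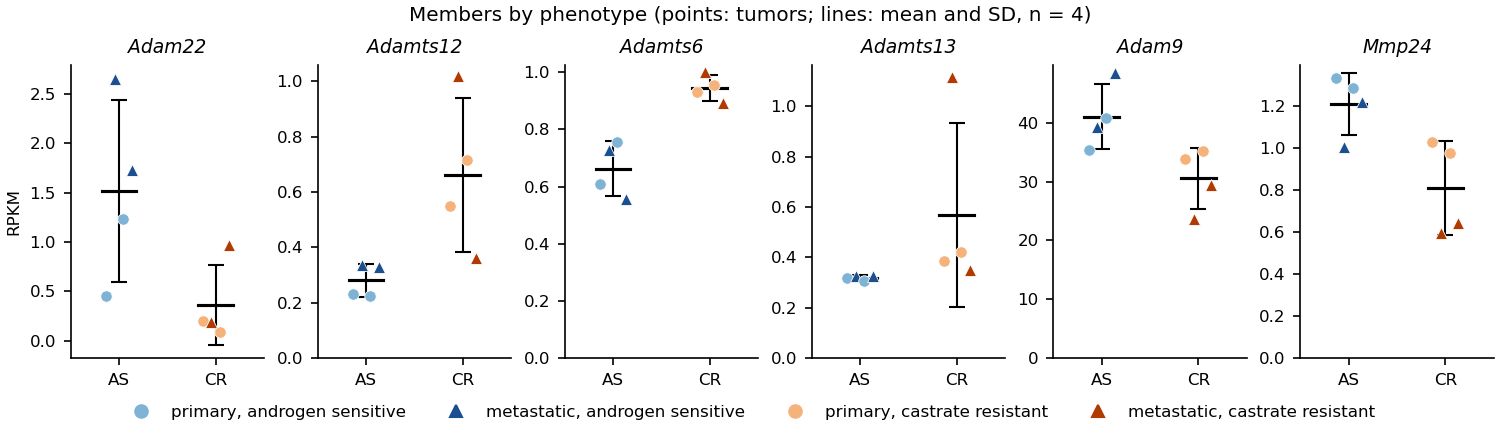
Level of 6 members, in RPKM, in the 4 androgen sensitive (AS) and 4 castrate resistant (CR) tumors, with the mean and the SD of each group; circles are primary and triangles metastatic tumors, and each panel has its own scale. AS and CR tumors are apart for Adamts12, Adamts6 and Adamts13, nearly touch for Adam9 and overlap for Adam22.

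Of 7 tested epithelial markers, 2 were called between the phenotypes, against 12.2% of all tested genes, both higher in CR tumors, the keratins Krt8 and Krt19 with adjusted p-values of 0.0442 and 0.0189 in the same test. Krt8 was at 18.6 to 85.6 in AS and 135 to 363 in CR tumors. Krt19 was at 0.619 to 2.51 in AS and 8.80 to 71.3 in CR tumors. Krt18, another keratin, averaged 0.230 in AS and 0.134 in CR tumors (adjusted p = 0.238). The epithelial adhesion genes Epcam and Cdh1 stayed at or under 0.133 in all 8 tumors. The part of this difference in the member results was not tested.

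The members fall into 13 groups by their known role, and no group held more than 1 member called. By tumor type, gelatinases had a median log2 fold change of -1.29 over both members, ADAMs without a catalytic site 1.33 over 3, membrane-type MMPs 0.07 over 3, aggrecanases and versicanases of the ADAMTS family 0.01 over 6, ADAMs of somatic tissues 0.01 over 9, and TIMPs 0.00 over 4. By phenotype, the medians were -0.16, 0.31, -0.35, 0.27, 0.12 and -0.15 in the same order. Aggrecanases cut the core proteins of aggrecan and versican, and Adamts1, the most abundant of them, was at 5.54 to 11.6 in 7 tumors and at 20.4 in metastatic CR2. Of the ADAM genes known mainly from testis or placed in no other group, 2 of 15 passed the filter on low counts.

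**Figure D5:**
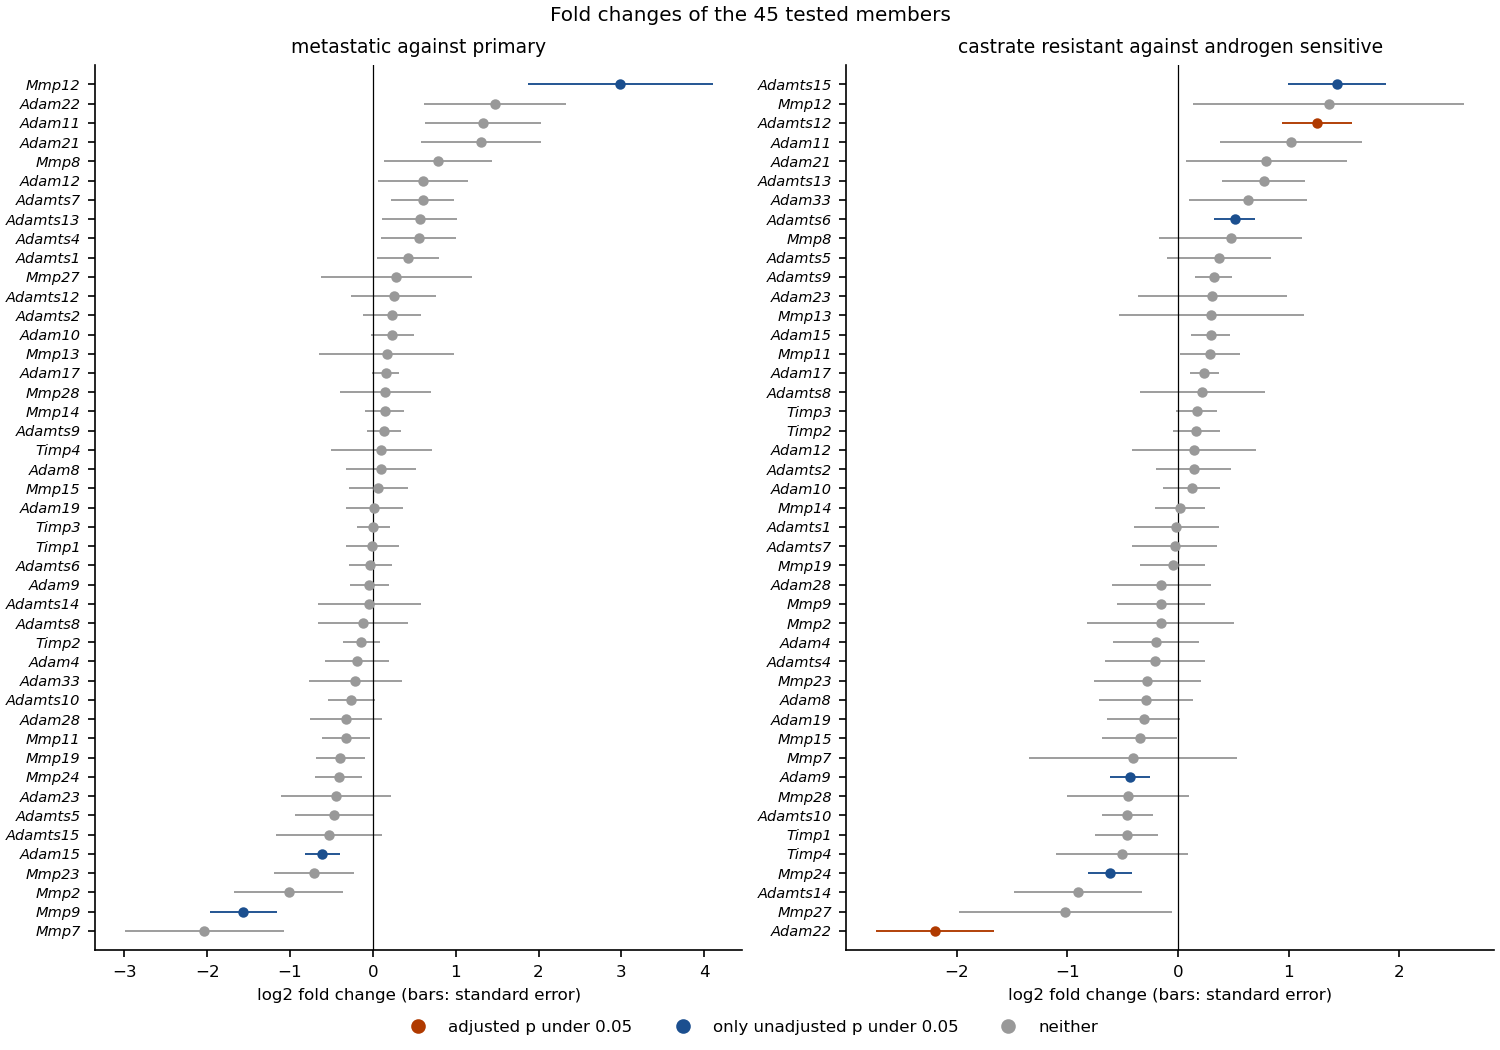
Log2 fold change with its standard error for each of the 45 tested members, metastatic against primary (left) and castrate resistant against androgen sensitive (right), each sorted by size. No member passes the adjusted threshold on the left, and Adam22 and Adamts12 pass it on the right; most other bars cross or come close to 0.

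Genes that act together with these proteases were read from 7 lists. By tumor type no gene of any list was called. The counts by phenotype stand against 12.2% of all tested genes called. By phenotype, the plasminogen activation list had 1 of 6 tested genes called, Plaur, the urokinase receptor, which fell in CR tumors (log2 fold change -1.54, adjusted p = 0.0176). Of 9 cell surface regulators of metalloproteases, 4 were called. Tspan5, a tetraspanin that escorts ADAM10 to the surface, rose by 1.96 on the log2 scale (adjusted p = 0.00741), and Tspan14, another such partner, fell by 1.13 (adjusted p = 0.00654). Reck, a membrane-anchored MMP inhibitor, rose by 1.34 (adjusted p = 0.0462), and Bsg, known as an inducer of MMPs, fell by 0.61 (adjusted p = 0.0419). Tspan5 was at 1.32 to 2.26 in AS and 4.35 to 10.8 in CR tumors, and Tspan14 at 15.7 to 21.1 in AS and 5.47 to 11.6 in CR tumors. Adam10 itself averaged 60.99 ± 9.37 in AS and 68.0 ± 23.1 in CR tumors (SD, n = 4 each).

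Of 5 tested ADAMTS-like proteins, which resemble ADAMTS proteases but have no protease domain, Papln rose (1.47 on the log2 scale, adjusted p = 0.0328) and Adamtsl4 fell by 1.49 (adjusted p = 0.0145) in CR tumors. Of 10 cathepsins and cystatins, the lysosomal proteases Ctsd and Ctsl fell in CR tumors, by 0.98 (adjusted p = 0.0137) and 0.95 (adjusted p = 0.0156) on the log2 scale. Ctsd was at 526 to 751 in AS and 225 to 460 in CR tumors. No gene was called among the 7 tested astacins and proprotein convertases, the 8 tested membrane serine proteases and their inhibitors, or the 11 AP-1 and ETS factors, with the quasi-likelihood test of edgeR. Among the AP-1 genes, Jun was at 15.5 to 32.3 and Fos at 1.33 to 4.75. For tumor type, Prss8, the membrane serine protease prostasin, had a log2 fold change of -0.54 at an unadjusted p = 0.0047 in the fit across all genes.

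The last question was whether the difference by tumor type itself differs between phenotypes. Of the 53 members tested for this interaction with 2 tumors a group, none had an adjusted p under 0.05, as was so for 0% of 18889 genes. At an unadjusted p under 0.05 there were 2 members (3.77%), against 2.74% of all tested genes, and DESeq2 called 0 members. They were Mmp12, with an interaction of 4.06 on the log2 scale, and Adamts5, with 1.83. Mmp12 was high in metastatic CR1 alone, and no interaction was fitted without that tumor. Adamts5, the main aggrecanase of mouse cartilage, was at 0.220 and 0.110 in primary AS1 and AS2, and at 0.0587 and 0.0581 in metastatic AS1 and AS2. In primary CR1 and CR2 it was at 0.147 and 0.0735, and in metastatic CR1 and CR2 at 0.144 and 0.147.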

How the data were processed

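Libraries were made from ribosomal RNA-depleted total RNA with a stranded kit and sequenced as paired-end reads. The authors mapped reads to mm10 (GRCm38), kept reads with a single location that differed at no more than 2 bases, and counted the reads of each gene. The methods name Bowtie, and the submitters' processing notes list CASAVA 1.8.2 and TopHat2 2.0; which of them made the files is unsure, and the counting tool, its strand setting and the annotation release are not given in the sources used here. The deposited values are raw read counts per gene, with no normalization; reads that match several places were dropped, which lowers the counts of near-identical genes. Each tumor's group was taken from its tumor type and phenotype labels.

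The analysis used edgeR 4.0.16 in R 4.3.3. After filterByExpr and TMM scaling, each gene was tested by quasi-likelihood, with p-values adjusted by the Benjamini-Hochberg method over all tested genes and a threshold of 0.05. Tumor type was tested as the only term, phenotype with tumor type as a covariate, and their interaction in a fit of both. The filter took tumor type, phenotype or the 4 groups as its grouping. Levels are TMM-scaled reads per kilobase of merged exons in GENCODE M21, in which 36343 of the 38115 counted genes and all 73 members were found. DESeq2 1.42.0, other scaling factors, other low-count filters, other terms, 4 possible pairings and each tumor left out were alternatives. Scripts were tested on simulated data. At these totals counting error is small beside the spread between tumors, except for members with few reads.

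Members and lists were chosen with earlier results of these data known. Genes named were the members past the threshold, or else the 4 with the smallest unadjusted p in each direction, the core genes Mmp2, Mmp3, Mmp7, Mmp9, Mmp11, Mmp13, Mmp14, Adam10, Adam17, Adamts1 and Timp1 to Timp4, and the 5 members with the highest mean level. Marker lists covered epithelial, fibroblast, macrophage, neutrophil, endothelial, smooth muscle, lymphocyte and mast cells. Summed levels of the last lists were 11.7 to 23.9 for 10 endothelial genes, 0.949 to 2.63 for 10 lymphocyte genes and 1.01 to 1.79 for 8 mast cell genes. Some genes of these lists are not reported here.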

Additional observations from a re-analysis of the deposited data

Results flagged for a closer look

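In 84 groups of 4 tumors examined for the named members, 4 held a tumor whose gap to its nearest neighbour passed Dixon's 95% critical value, and chance alone flags about 1 in 20 groups. Gaps were taken on the log2 scale after adding 0.1 to each level, as a share of the range on that scale. They are not shares of the range of the RPKM values printed beside them. Mmp2 in primary tumors had a gap of 0.894 of the log2 range, with primary CR2 at 0.176 (12 reads) and the next tumor at 1.47. Adamts12 in metastatic tumors had a gap of 0.927, with metastatic CR1 at 1.02 and the next at 0.360. Timp1 in AS tumors had a gap of 0.89, with primary AS1 at 7.02 and the next at 13.8. Timp4 in primary tumors had a gap of 0.934, with primary AS1 at 0.300 and the next at 0.127.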

How the results depend on the processing

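By tumor type, no member was called under any of the 20 alternatives (0 throughout). The number of members at an unadjusted p under 0.05, 3 as reported, became 8 when every gene with at least 1 count was tested, a filter that also moved the median log2 fold change of all genes to 0.106, and 5 within castrate resistant tumors, a contrast added after the data were seen. Over all genes the number, 459 as reported, rose to 1432 and 1462 in these fits. With 1 tumor left out the number of members ran from 2 to 5, with 5 without primary CR2. The number over all genes ran from 224 to 944 in these fits and was 799 without primary CR2. The primary tumor of each metastasis is not named, so a block was fitted for each of the 4 pairings that are possible. The pairings gave 3 or 4 members, and 887 to 1186 over all genes. Mmp9, Adam15 and Adam22 were among the members each time, Mmp7 in 2 of the pairings and Mmp12 in none. Mmp12 was also missing with phenotype as a covariate, a fit with 4 members and 1146 over all genes. Adam21 had a log2 fold change of -0.040 within androgen sensitive tumors, the opposite sign, and the cause was not tested.

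By phenotype, the 2 members called became 4 with every gene of at least 1 count, 5 with DESeq2 and 1 with phenotype as the only term. Over all genes these fits called 3098, 3544 and 1894, against 2081 as reported. The members called became 0 in primary tumors only and 0 in metastatic tumors only, which compare 2 tumors with 2. Of all genes, 4 and 974 were called there. With 1 tumor left out the number of members ran from 0 to 3. It was 0 without metastatic AS1, primary AS2, metastatic AS2 or metastatic CR1. The calls over all genes moved too, to 4133 without primary CR1, the fit with 3 members, and to 481 to 745 in the fits with 0. RLE and upper-quartile factors called Adam22 and Adamts12 as reported. The interaction called 1 member, Mmp12, with every gene of at least 1 count, where 217 of all genes were called. The 28 members untested by tumor type and by phenotype had too few reads for those tests as reported. Some of them passed the filter by the 4 groups, which left 53 members for the interaction. Metastatic CR2 had the fewest reads and the most low-level reads.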
